A study of Mus musculus with 8 samples.

Results

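The genes described here encode the machinery that releases synaptic vesicles at the presynaptic terminal. They were taken from a list of 57 gene symbols, each matched exactly to the symbol in the array's annotation, and 56 of the 57 were measured among 19938 genes in all. The one not analysed here is Vamp2, the main synaptobrevin of forebrain synapses, whose probe set carries 2 gene symbols, Ubr3 and Vamp2. Expression was measured in the neocortex of mouse pups at postnatal day 2, in layers II to IV cut from tissue sections with a laser. In 4 mutant pups (Bcl11a flox/flox;Emx1 IRESCre/+) both alleles of Bcl11a were floxed, and in 4 control pups (Bcl11a flox/+;Emx1 IRESCre/+) 1 allele was. Both groups therefore carried Cre recombinase at the Emx1 locus, and where Cre acts the mutants lack both alleles and the controls 1. Emx1 is expressed in the progenitors of cortical excitatory neurons and of much cortical glia, so that interneurons, microglia and vessels in the same tissue lie outside the Cre lineage. Each pup gave total RNA for 1 Affymetrix array, and the values are log2 expression.

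Bcl11a is a zinc finger protein that regulates transcription in projection neurons of the cortex. At a synapse, vesicles filled with transmitter are tethered to a protein scaffold called the active zone, primed, and fused with the plasma membrane when calcium enters. Fusion is driven by SNARE proteins, which zip together into a bundle between the vesicle and the plasma membrane. Synaptotagmins and related proteins with C2 domains bind calcium and phospholipids and trigger fusion, complexins hold and then help the assembled bundle, and Unc13 and Cadps proteins prime vesicles beforehand. In the newborn cortex most of these synapses have yet to form, and many of the proteins are already made and carried along growing axons.

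Bcl11a itself, the deleted gene, read 8.56, 8.85, 8.37 and 8.75 in the mutant pups, against 10.59, 10.52, 10.34 and 10.34 in the control pups, a log2 difference of -1.82 (SE 0.10). No source used here says whether its probes lie in the deleted part of the gene. The deposited values ran from 2.03 to 13.8, with array medians of 4.83 to 4.91. An empirical background floor of 4.31 was set at the highest reading of 3 Y-linked genes (Eif2s3y, Kdm5d and Uty) in the 3 arrays with high Xist. These were mutant 3, control 1 and control 3, so that sex inferred from Xist was not balanced between the genotypes. Of all genes, 31.5% had a mean at or below the floor. Among the release genes, Syt12 lay at or below that floor in all 8 arrays and Cplx3 in 4 of 8, so that a difference in either may not have been measurable. Every other release gene was above it in all 8 arrays. Control 1 stood apart from the other arrays. It was the lowest of the 8 arrays for 20 of the 56 release genes (35.7%), against 16.4% of all genes, and the lowest of the 4 control arrays for 29 of them (51.8%), against 27.0% of all genes. Over all genes the SD of the deviation from the group mean was 0.15 in control 1, against 0.10 to 0.12 in the other 7 arrays. Values without control 1 are given for the release genes that passed and for some of the others whose difference or call it moved. A release gene without such a value may have moved as well.

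Across all genes, 4.15% passed an adjusted p of 0.05 in limma, the linear model fitted to every gene with adjustment over all 19938 of them, with 2.36% higher and 1.79% lower in the mutant. Of the 56 release genes 9 passed (16.1%), 5 higher and 4 lower. Snap25, Cadps2, Slc17a6 and Sypl fell, and Syt4, Syt13, Doc2a, Rph3a and Ppfia2 rose. The mutant and control values did not overlap for 16 release genes (28.6%), against 9.25% of all genes, and the median size of the log2 difference, sign ignored, was 0.14 among release genes and 0.067 among all genes. The signed median was 0.025 among release genes and 0.017 among all genes, with 33 release genes above 0 and 23 below. Without control 1, 4 release genes passed as higher and 5 as lower. These shares are descriptions, with no test over the list, which was chosen with earlier results of these data known. The shares over all genes also count dim genes, since 31.5% of all genes had a mean at or below the floor. Only 2 of the 56 release genes had any array there. Among the brighter 50% of the 19938 genes alone 886 passed, against 827 with all 19938 kept. The share of all genes that passed was therefore larger among the brighter genes than the 4.15% given above. Of the 51 release genes left there, 5 were higher and 6 lower. The part of expression level in these shares was not tested.

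**Figure D1:**
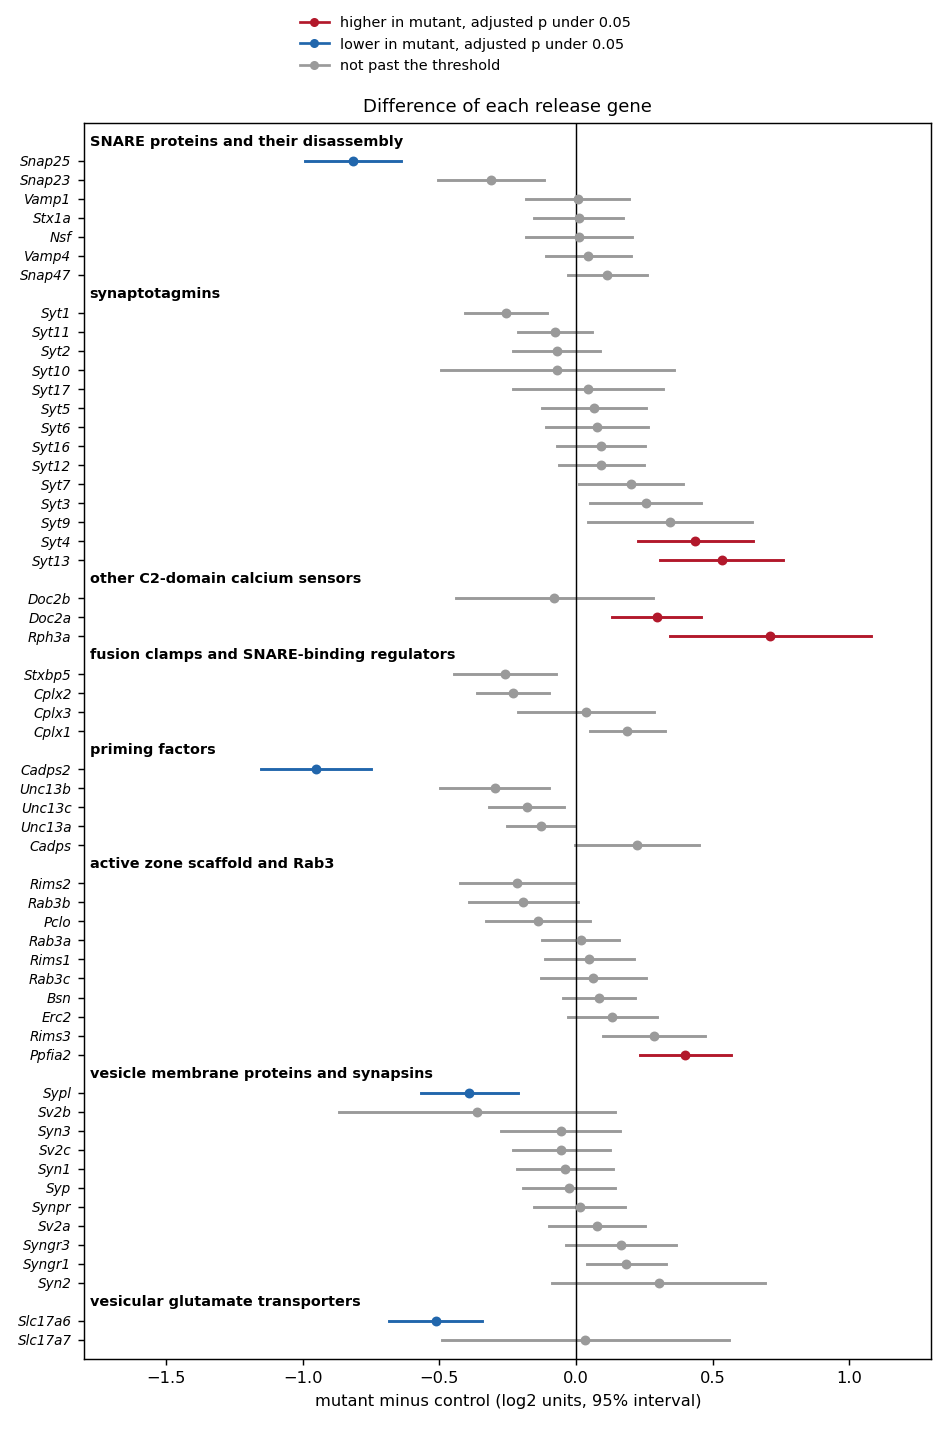
Difference of each of the 56 measured release genes, mutant minus control, in log2 units on the horizontal axis, with points at the estimate and bars for the 95% interval of the linear model. Genes are grouped by role and ordered by size within each role. Red marks the 5 genes that were higher and blue the 4 that were lower at an adjusted p under 0.05, and the largest differences on either side are those of Cadps2 (-0.95) and Rph3a (0.71).

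The tissue is a mixture of cell types, and in bulk RNA fewer cells of a type and less RNA per cell cannot be told apart. The defining genes of excitatory neurons were all above the floor (11 of 11 measured). Without the glutamate transporters, which are release genes, the excitatory list averaged 8.77 to 8.85 in the mutant arrays, against 8.93 to 9.07 in the control arrays. Of its 11 measured genes, Emx1, Emx2, Cux1, Cux2, Mef2c and Slc17a6 fell and Neurod6 rose. Interneuron markers also averaged lower, at 6.94 to 6.98 in the mutant arrays, against 7.06 to 7.25 in the control arrays, and Dlx1, Npy, Reln and Nxph1 fell among 19 measured. Of the 19, 3 had a difference above 0, the largest that of Calb2 (0.86), which did not pass. When single arrays were left out, Nxph1 lost its call in 7 of 8 fits (adjusted p up to 0.108), Reln in 5 (up to 0.101) and Emx1 in 4 (up to 0.0891). Subplate markers, without Cplx3, averaged 4.999 to 5.14 in mutants, against 5.38 to 5.63 in controls, where Nr4a2 fell among 7 and the median difference of the list was -0.085. Deep-layer markers were higher, at 6.55 to 6.65 in mutants, against 6.13 to 6.45 in controls, where Ldb2 alone of 10 rose. Striatal markers were higher too, at 5.69 to 5.76 in mutants, against 5.53 to 5.65 in controls, where Meis2 rose among 8. The median difference of the striatal list was 0.024, and 3 of its 8 genes lay at or below the floor. These 5 list averages did not overlap between the genotypes, but each rested in part on 1 gene, and without the most different gene of each list the averages overlapped. The difference of the list was then -0.056 for excitatory neurons (without Cux2), -0.15 for interneurons (without Npy), -0.092 for subplate (without Nr4a2), 0.14 for deep-layer neurons (without Ldb2) and -0.0035 for striatum (without Meis2). The part of these markers in the release gene results was not tested.

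The other cell type lists overlapped between the genotypes. In the oligodendrocyte lineage Cnp rose (9 measured), among progenitors Vim fell (10 measured; lost in 4 of 8 fits that left out 1 array, adjusted p up to 0.0814), among Cajal-Retzius markers Reln fell (8 measured), and of 8 thalamic markers Slc17a6 fell. The groups of Reln overlapped. Calb2, a marker in both of these last lists, had their largest difference, 0.86 higher in the mutant, and did not pass. Without Calb2 the difference of the Cajal-Retzius list moved from -0.031 to -0.16. That of the thalamic list, Slc17a6 left out, moved from 0.096 to -0.031. None of 10 astrocyte, 9 microglial, 10 vascular and 10 meningeal markers passed, nor any of 12 measured ribosomal protein genes, with unadjusted p-values under 0.05 for 3, 1, 3, 2 and 0 of them in that order. Of all 19938 genes, 2789 had an unadjusted p under 0.05. Of the microglial markers 5 of 9 lay at or below the floor (Aif1, C1qb, Itgam, P2ry12 and Tmem119). Mitochondrially encoded genes were not analysed here.

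Promoter windows of the release genes were searched for the core motif TGACCA, to which BCL11A binds in human red blood cell precursors. The windows cover 250 bases before to 50 bases after an annotated start in RefSeq (GRCm38.p6), and both strands were searched, TGACCA and its reverse complement TGGTCA. Of 32851 such windows of all genes 4458 held it (13.6%), and of 59 windows of 44 release genes 3 did (5.08%), those of Slc17a6, Unc13c and Vamp1. Among the genes that passed, Cadps2, Ppfia2, Rph3a, Slc17a6 and Sypl had windows, 9 in all, and 1 of the 9 held the motif. The windows of 3 of these genes are shown because among the genes with a window Cadps2 and Slc17a6 had the largest falls, and Ppfia2 was the rise that passed in every fit that left out 1 array. Slc17a6 has 2 windows, and the one with the motif is shown. Capitals mark the motif, and each is read 5′ to 3′ on the strand of the gene.
Slc17a6, chr7:51621580-51621879, plus strand, GRCm38.p6: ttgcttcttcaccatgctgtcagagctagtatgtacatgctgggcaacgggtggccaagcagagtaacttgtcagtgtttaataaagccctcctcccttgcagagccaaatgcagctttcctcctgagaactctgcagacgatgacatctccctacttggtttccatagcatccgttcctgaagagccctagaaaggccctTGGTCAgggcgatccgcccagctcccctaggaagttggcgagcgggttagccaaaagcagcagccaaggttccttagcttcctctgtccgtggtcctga
Cadps2, chr6:23839372-23839671, minus strand, GRCm38.p6: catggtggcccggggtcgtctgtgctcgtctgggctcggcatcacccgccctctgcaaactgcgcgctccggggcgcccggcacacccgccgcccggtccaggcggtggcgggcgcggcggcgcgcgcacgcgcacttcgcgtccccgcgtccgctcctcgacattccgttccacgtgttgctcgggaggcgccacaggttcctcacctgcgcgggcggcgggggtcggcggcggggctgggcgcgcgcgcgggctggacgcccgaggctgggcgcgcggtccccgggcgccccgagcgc
Ppfia2, chr10:106470060-106470359, plus strand, GRCm38.p6: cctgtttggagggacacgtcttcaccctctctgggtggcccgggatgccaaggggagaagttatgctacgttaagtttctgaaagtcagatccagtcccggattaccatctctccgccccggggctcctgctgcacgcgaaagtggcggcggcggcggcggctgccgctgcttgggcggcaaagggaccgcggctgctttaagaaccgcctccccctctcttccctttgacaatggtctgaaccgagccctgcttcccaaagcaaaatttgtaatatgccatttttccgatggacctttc
The motif in the Slc17a6 window is the reverse complement and begins at position -49 from the start. The windows of Cadps2, which fell most, and of Ppfia2 hold no copy, which says only that these letters are not in these 300 bases.

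Among the SNARE proteins, Snap25 fell and the other 6 measured genes did not pass. Snap25 is the plasma membrane SNARE that contributes a pair of helices to the fusion bundle and is cut by botulinum toxins. Snap25 read 9.39, 9.03, 9.27 and 9.37 in the mutant pups, against 10.12, 10.02, 10.10 and 10.07 in the control pups. Each mutant array lay below each control array, with a wide gap between the groups and control arrays that were close together. Mutant pups averaged 9.26 ± 0.17 and control pups 10.08 ± 0.042 (SD, n = 4 each), a difference of -0.82 (SE 0.081, 95% interval -0.99 to -0.64, adjusted p = 6.14e-05 in limma), which is 1.76-fold lower in the mutant if the logarithm is to base 2. Snap25 passed in each of the 8 fits that left out 1 array, and without control 1 its difference was -0.80.

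Snap23, the widely expressed relative of Snap25, read 5.57, 5.46, 5.79 and 5.89 in the mutant pups, against 5.93, 5.96, 6.06 and 5.997 in the control pups. Its groups did not overlap, but they lay close together and the difference of -0.31 (SE 0.090) missed the threshold (adjusted p = 0.0808). Without mutant 4 it passed, at 0.0312. Snap47, a SNAP family member found on inner membranes as well, differed by 0.11 (adjusted p = 0.510), and its values of 9.46 to 9.56 in the mutants overlapped those of 9.31 to 9.53 in the controls. Stx1a, the plasma membrane syntaxin, differed by 0.0092, Vamp1, a further synaptobrevin, by 0.0054, Nsf, the ATPase that takes used SNARE bundles apart, by 0.012, and Vamp4, a SNARE of the Golgi and endosomes, by 0.044. The sign of the differences of Stx1a, Vamp1 and Nsf turned when each array was centred on its own median. The 95% intervals of these last 4 differences reached no further than -0.18 on one side and 0.21 on the other.

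Within single arrays the ratio of Snap25 to its relatives can be followed. The log2 ratio of Snap25 to Snap47 was -0.53 to -0.15 in the mutant pups, against 0.59 to 0.79 in the control pups, a difference of -0.93. That of Snap25 to Snap23 was 3.48 to 3.82 in the mutants, against 4.05 to 4.19 in the controls, a difference of -0.50. Neither pair of ranges overlapped (exact two-sided permutation p = 0.0286 for each, the smallest that 4 against 4 arrays can give, and 0.0429 after adjustment over the 6 ratios examined). Without control 1 the ratio to Snap47 differed by -0.96 (exact p = 0.0286, again the smallest possible) and that to Snap23 by -0.47 (exact p = 0.0571). All 6 ratios were chosen after the values had been seen. Snap25 alone already separated the groups, so the p-values of its ratios are no separate support. A ratio shows unequal change and not that one partner stayed the same.

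Of 14 synaptotagmins, Syt4 and Syt13 rose and none fell. Both belong to the branch of the family that binds calcium weakly or not at all, in contrast to Syt1, Syt2 and Syt9, which trigger fast release. Syt13 read 6.51, 6.80, 6.76 and 6.67 in the mutant pups, against 5.83, 6.27, 6.18 and 6.33 in the control pups. The groups did not overlap, and control 1 was the lowest array. The means were 6.68 ± 0.13 in mutants and 6.15 ± 0.22 in controls (SD, n = 4 each), a difference of 0.53 (SE 0.10, 95% interval 0.31 to 0.76, adjusted p = 0.00929), or 1.45-fold. Without control 1 the difference was 0.43 (adjusted p = 0.00847), and Syt13 passed in each of the 8 fits that left out 1 array.

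Syt4, a regulator of dense-core and growth factor-containing vesicles that is induced by neuronal activity, read 11.96, 11.58, 11.70 and 11.48 in the mutant pups, against 11.36, 11.30, 11.12 and 11.21 in the control pups. Mutant 1 was the highest array, and the lowest mutant array lay just above the highest control array. The difference was 0.44 (SE 0.098, 95% interval 0.22 to 0.65, adjusted p = 0.0212), or 1.35-fold. The call was lost without mutant 3 (adjusted p = 0.0623), without control 3 (0.0713) or without control 4 (0.0586), while without control 1 the difference was 0.47.

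The calcium sensors of fast release differed in size and sign. Syt1, the main sensor of forebrain synapses, read 10.88, 10.80, 10.82 and 10.88 in the mutant pups, against 10.95, 11.11, 11.12 and 11.23 in the control pups. The groups did not overlap, yet the difference of -0.26 (SE 0.070) missed the threshold with all arrays (adjusted p = 0.0606) and passed without control 1, at -0.31 (adjusted p = 0.0184). Syt2, which serves fast synapses mainly of the hindbrain and of some interneurons, differed by -0.071 (adjusted p = 0.773). Syt9 differed by 0.34 (SE 0.14, adjusted p = 0.266). Its mutant values of 7.38 to 7.75 overlapped control values of 6.78 to 7.56, with control 1 the lowest, and without control 1 the difference was 0.19. Syt7, a sensor of slow release with high calcium affinity, differed by 0.20 and Syt3 by 0.25, and both groups overlapped (adjusted p = 0.322 and 0.202). Without control 1, Syt7 differed by 0.12. The other 7 synaptotagmins (Syt5, Syt6, Syt10, Syt11, Syt12, Syt16 and Syt17) differed by between -0.079 and 0.092 in overlapping groups, and for Syt10 control 1 at 4.85 lay far below the other controls at 5.75 to 5.95. Without control 1, Syt10 differed by -0.32 (adjusted p = 0.112).

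Of the 3 other calcium sensors with C2 domains, Doc2a and Rph3a rose and Doc2b did not pass. Rph3a (rabphilin) binds Rab3 on the vesicle and SNAP25 on the plasma membrane. It read 8.04, 8.71, 8.60 and 8.51 in the mutant pups, against 7.23, 7.91, 7.82 and 8.07 in the control pups. Mutant 1 was the lowest mutant and control 4 the highest control, and these overlapped, while control 1 was far below the other controls. The difference was 0.71 (SE 0.17, 95% interval 0.34 to 1.08, adjusted p = 0.0313 in limma), or 1.64-fold, and the exact two-sided permutation test gave 0.0571. Without control 1 it was 0.53 (adjusted p = 0.0378). The call was lost without mutant 2 (0.118), mutant 3 (0.0967), mutant 4 (0.0977) or control 3 (0.0642).

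Doc2a, a sensor tied to spontaneous and delayed release of glutamate, read 7.88, 8.20, 8.08 and 8.05 in the mutant pups, against 7.77, 7.80, 7.67 and 7.79 in the control pups. The groups did not overlap, with the lowest mutant just above the highest control. The difference of 0.29 (SE 0.075, 95% interval 0.13 to 0.46, adjusted p = 0.0448), or 1.23-fold, passed narrowly and was lost in 7 of the 8 fits that left out 1 array, each except that without mutant 1, with adjusted p-values of 0.0680 to 0.148. Without control 1 the difference was 0.30 and the adjusted p was the lowest of those, 0.0680. Doc2b, its relative linked to spontaneous release at inhibitory synapses, read 6.85, 6.92, 6.97 and 7.29 in the mutant pups, against 6.49, 7.16, 7.23 and 7.46 in the control pups. Those values overlapped widely, control 1 was the lowest array, and the difference was -0.080 (adjusted p = 0.911), or -0.28 without control 1 (adjusted p = 0.231). The log2 ratio of Doc2a to Doc2b differed by 0.37 (exact permutation p = 0.171), and by 0.58 without control 1 (exact p = 0.0571), so the members of this pair were not shown to differ.

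None of the 4 genes for fusion clamps and SNARE-binding regulators passed in limma. An unadjusted p under 0.05 was found for 3 of the 4, against 2789 of all 19938 genes. Cplx2 and Cplx1, the complexins of forebrain neurons, did not overlap between the groups and went opposite ways. Cplx2 read 9.39, 9.53, 9.52 and 9.53 in the mutant pups, against 9.73, 9.72, 9.74 and 9.71 in the control pups, a difference of -0.23 (SE 0.061, adjusted p = 0.0543). Cplx1 read 9.35, 9.44, 9.48 and 9.35 in the mutant pups, against 9.27, 9.20, 9.14 and 9.26 in the control pups, a difference of 0.19 (SE 0.064, adjusted p = 0.156). Both gaps between the groups were small, and the 4 control arrays of Cplx2 lay within 0.027 of each other. Stxbp5 (tomosyn), which occupies the syntaxin needed for fusion, read 9.03, 9.15, 9.25 and 8.90 in the mutant pups, against 9.51, 9.23, 9.36 and 9.28 in the control pups, with mutant 3 above control 2, and differed by -0.26 (adjusted p = 0.141). Cplx3, a complexin that marks the subplate, was near or below the floor and differed by 0.036.

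Among 5 priming factors, Cadps2 fell, and for the 3 Unc13 genes every mutant array lay below every control array without passing the threshold. Of all genes, 9.25% had groups that did not overlap in either direction. Cadps2 primes dense-core vesicles, which carry peptides and growth factors, and showed the largest difference of all release genes. It read 6.07, 6.43, 6.45 and 6.19 in the mutant pups, against 7.20, 7.16, 7.40 and 7.19 in the control pups. The highest mutant array lay well below the lowest control array. Mutant pups averaged 6.28 ± 0.19 and control pups 7.24 ± 0.11 (SD, n = 4 each), a difference of -0.95 (SE 0.093, 95% interval -1.15 to -0.75, adjusted p = 5.54e-05 in limma), or 1.93-fold lower in the mutant. Cadps2 passed in each of the 8 fits that left out 1 array, and without control 1 the difference was -0.96.

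Cadps, its close relative, differed the other way by 0.22 without passing (adjusted p = 0.364), with mutant values of 8.30 to 8.52 that overlapped control values of 7.84 to 8.39. Without control 1 the difference of Cadps was 0.11. The log2 ratio of Cadps2 to Cadps was -2.38 to -1.87 in the mutants, against -1.20 to -0.64 in the controls. It differed by -1.18 between groups that did not overlap (exact permutation p = 0.0286, the smallest possible, 0.0429 over 6 ratios), and by -1.07 without control 1 (exact p = 0.0286). This ratio too was chosen after the values had been seen. Cadps2 alone already separated the groups, so these p-values are no separate support.

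The Unc13 proteins open syntaxin and are needed for nearly all vesicle priming in forebrain neurons. Unc13b read 6.19, 5.99, 5.89 and 6.18 in the mutant pups, against 6.37, 6.57, 6.31 and 6.19 in the control pups, a difference of -0.30 (adjusted p = 0.112). Mutant 1 and control 4 were all but equal. Unc13a read 8.84, 8.83, 8.81 and 8.84 in the mutant pups, against 8.96, 8.96, 8.93 and 8.99 in the control pups, a difference of -0.13 (SE 0.057, adjusted p = 0.323). Unc13c, best known from the cerebellum, read 5.81, 5.75, 5.62 and 5.76 in the mutant pups, against 5.89, 5.95, 5.92 and 5.90 in the control pups, a difference of -0.18 (adjusted p = 0.174). For each of the 3 genes the groups did not overlap and the gap was small. Unc13a was covered by 3 probe sets and Unc13c by 7, and all 10 were lower in the mutant, by between -0.18 and -0.042. The smallest of these differences came from an Unc13c probe set below the floor of 4.31 (means 2.97 in mutants and 3.01 in controls). Probe sets of 1 gene on the same arrays are not independent.

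**Figure D2:**
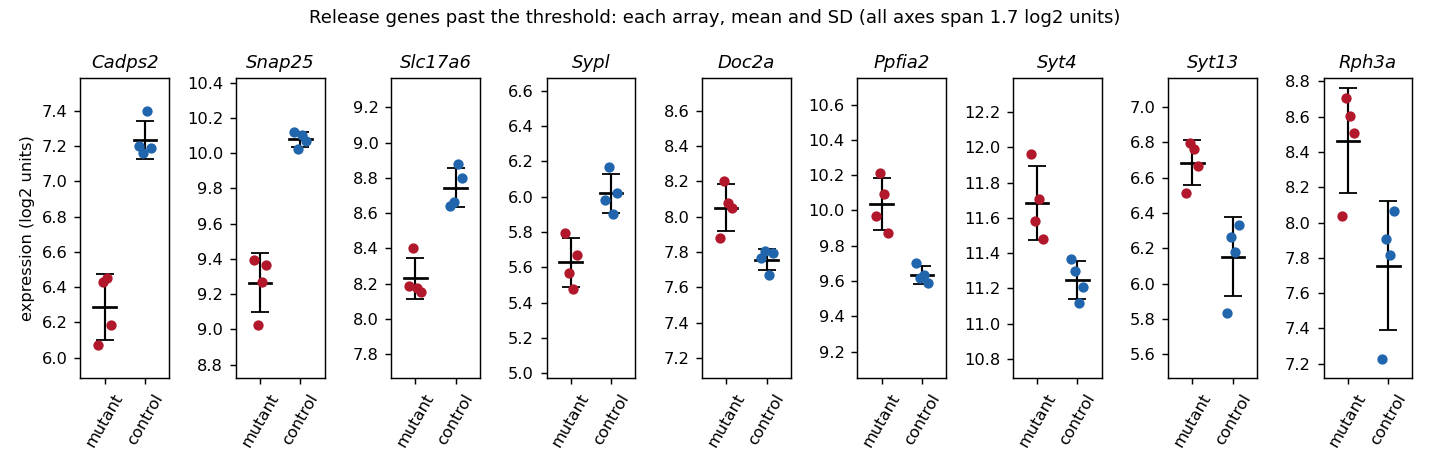
Log2 expression of the 9 release genes that passed, 1 panel per gene, with each dot 1 pup, mutants (red) left of controls (blue), and bars for the mean and SD of 4 pups. The vertical axes begin at different levels and all span the same 1.7 log2 units. The groups are apart in each panel except that of Rph3a, where the lowest mutant (8.04) lies below the highest control (8.07).

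Of 10 genes for the active zone scaffold and Rab3 proteins, Ppfia2 rose and none fell. Ppfia2 encodes a liprin-alpha, an adaptor that recruits scaffold proteins and vesicle cargo to forming release sites. It read 9.97, 10.21, 10.09 and 9.87 in the mutant pups, against 9.70, 9.62, 9.63 and 9.59 in the control pups. Each mutant array exceeded each control array, and the mutants were more spread out than the controls. The means were 10.03 ± 0.15 in mutants and 9.63 ± 0.049 in controls (SD, n = 4 each), a difference of 0.40 (SE 0.077, 95% interval 0.23 to 0.57, adjusted p = 0.00846), or 1.32-fold, which passed in each of the 8 fits that left out 1 array and was 0.42 without control 1.

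Rims3, a short RIM protein, read 8.34, 8.23, 8.19 and 8.25 in the mutant pups, against 7.73, 7.98, 7.997 and 8.16 in the control pups. The groups did not overlap, control 1 was the lowest array, and the difference of 0.28 (SE 0.086, adjusted p = 0.1001) passed only without control 4, at 0.0388. Without control 1 the difference of Rims3 was 0.20. Rims2, which links calcium channels to vesicles, differed by -0.22 (adjusted p = 0.332) and Rims1 by 0.049, both with overlapping groups. The large scaffold genes Bsn and Pclo differed by 0.084 and -0.14, and Erc2, which binds RIM and bassoon, by 0.13. The vesicle GTPases Rab3a, Rab3b and Rab3c differed by 0.017, -0.19 and 0.063, of which the first turned to -0.019 when arrays were centred on their medians. All of these overlapped between the groups, and the smallest adjusted p among them was that of Rims2. Without control 1, Pclo differed by -0.22, Erc2 by 0.075 and Rab3b by -0.29 (adjusted p = 0.050004 for Rab3b, just above the threshold).

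Among 11 vesicle membrane proteins and synapsins, Sypl fell and none rose. Sypl, the widely expressed relative of synaptophysin found on transport vesicles of many cells, read 5.80, 5.57, 5.47 and 5.67 in the mutant pups, against 5.98, 6.17, 5.90 and 6.02 in the control pups. The groups did not overlap, with mutant 1 not far below control 3. The difference was -0.39 (SE 0.082, 95% interval -0.57 to -0.21, adjusted p = 0.0146), or 1.31-fold lower in the mutant, and -0.40 without control 1. The call was lost without mutant 2 (adjusted p = 0.0563), without mutant 3 (0.0512) or without control 2 (0.05004, just above the threshold).

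Syp (synaptophysin), the most used marker of synaptic vesicles, read 9.16, 9.13, 9.12 and 9.35 in the mutant pups, against 9.12, 9.25, 9.13 and 9.37 in the control pups. These values overlapped and the difference was -0.026 (95% interval -0.19 to 0.14). The log2 ratio of Sypl to Syp differed by -0.36 in groups that did not overlap (exact permutation p = 0.0286, 0.0429 over 6 ratios), and by -0.34 without control 1 (exact p = 0.0571). It was likewise chosen after the values had been seen, when Sypl alone already separated the groups, so these p-values are no separate support. Synpr, a relative of synaptophysin, differed by 0.012 (by -0.023 with arrays centred on their medians), and the synaptogyrins Syngr1 and Syngr3 by 0.18 and 0.16 (adjusted p = 0.200 and 0.497).

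The synapsins, which tie vesicles into the reserve pool, and the Sv2 proteins, glycoproteins of the vesicle membrane that are receptors for botulinum toxins, did not pass. Syn1 differed by -0.041, Syn3 by -0.056, Sv2a by 0.076 and Sv2c by -0.054, with overlapping groups, and Syn3 by -0.11 without control 1. Syn2 read 7.73, 7.98, 8.19 and 8.25 in the mutant pups, against 7.11, 7.82, 7.85 and 8.16 in the control pups, and Sv2b read 5.96, 6.16, 6.54 and 6.88 in the mutant pups, against 5.99, 6.90, 6.90 and 7.20 in the control pups. Both overlapped and both had control 1 far below the other controls. Syn2 differed by 0.30 with all arrays and by 0.093 without control 1, and Sv2b by -0.36 and by -0.62 (adjusted p = 0.566 and 0.0694).

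Of the vesicular glutamate transporters, Slc17a6 fell and Slc17a7 did not pass. Both load glutamate into vesicles. In the adult forebrain Slc17a6 prevails in the thalamus and Slc17a7 in the cortex, and young cortical neurons make Slc17a6 as well. Slc17a6 read 8.19, 8.41, 8.18 and 8.15 in the mutant pups, against 8.64, 8.66, 8.88 and 8.80 in the control pups. The groups did not overlap. The means were 8.23 ± 0.12 in mutants and 8.75 ± 0.11 in controls (SD, n = 4 each), a difference of -0.51 (SE 0.079, 95% interval -0.68 to -0.34, adjusted p = 0.00160), or 1.43-fold lower in the mutant, and -0.55 without control 1. It passed in each of the 8 fits that left out 1 array. The thalamic marker list, without Slc17a6, averaged 6.05 to 6.17 in the mutants, against 5.71 to 6.14 in the controls, which overlapped.

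Slc17a7 read 7.81, 7.54, 7.79 and 8.36 in the mutant pups, against 6.98, 7.999, 7.999 and 8.38 in the control pups. Control 1 was the lowest of the 8 arrays by a wide margin, and the controls alone spanned 1.40 log2 units, the most of any release gene. The difference was 0.034 (95% interval -0.49 to 0.56) with all arrays and -0.25 without control 1 (adjusted p = 0.523), so the arrays set no useful limit on it. The log2 ratio of Slc17a6 to Slc17a7 differed by -0.55 (exact permutation p = 0.143) and by -0.30 without control 1 (exact p = 0.314), so a shift between the 2 transporters was not detected.

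**Figure D3:**
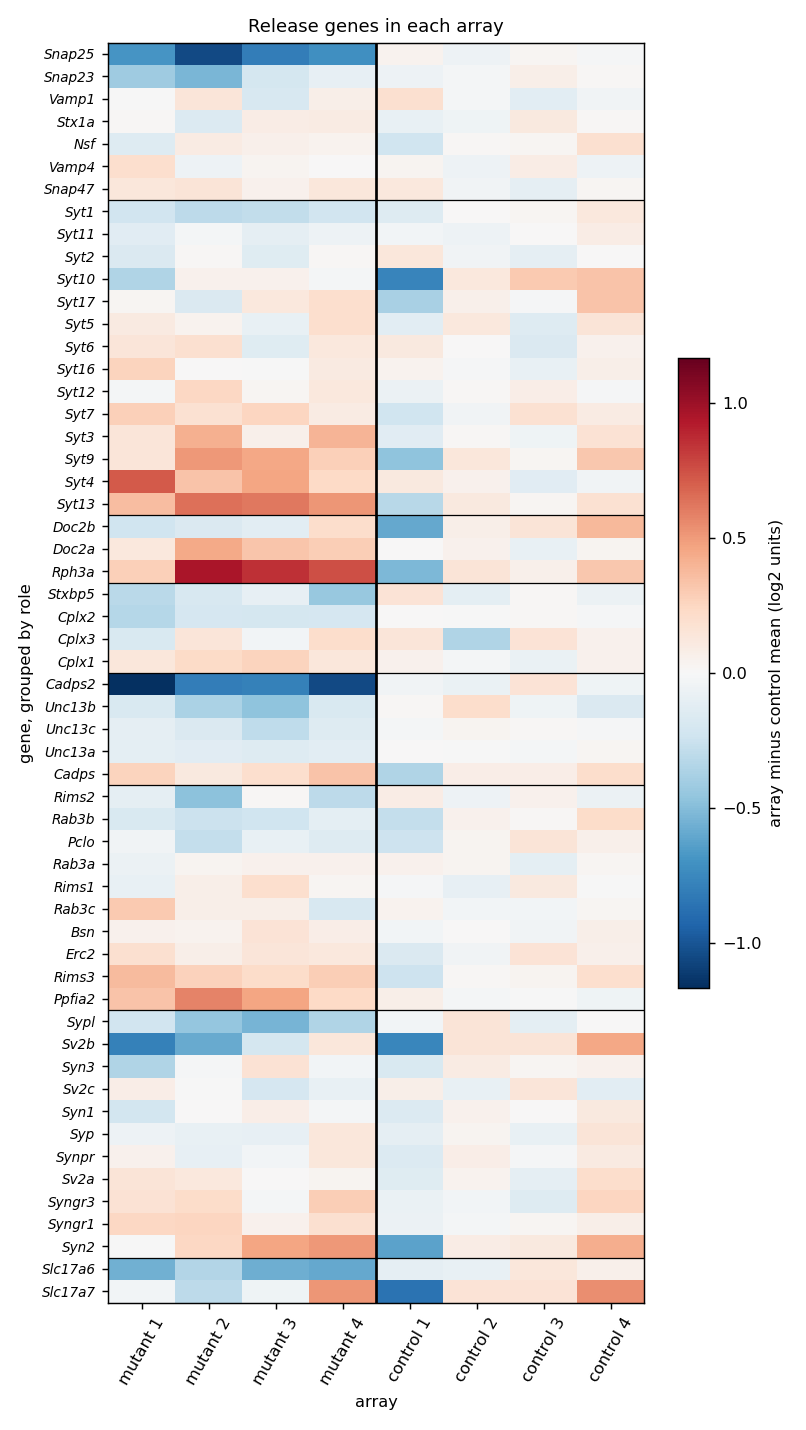
Each of the 56 release genes (rows, grouped by role) in each of the 8 arrays (columns, mutants left of the heavy line, controls right), coloured by the log2 value minus the mean of the 4 controls for that gene, blue lower and red higher. The rows of Snap25 and Cadps2 are blue in all 4 mutants, and the column of control 1 is blue for Slc17a7, Sv2b, Syt10, Syn2, Doc2b and Rph3a.

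Control 1 was low for some release genes and not for others. The widest control ranges were 1.40 for Slc17a7, 1.21 for Sv2b, 1.10 for Syt10, 1.05 for Syn2, 0.97 for Doc2b, 0.84 for Rph3a, 0.78 for Syt9 and 0.71 for Syt17, and control 1 was the lowest control for each of these 8. Among the mutants, mutant 1 was the lowest for Sv2b (5.96), Syt10 (5.27), Syn2 (7.73), Doc2b (6.85), Rph3a (8.04) and Syt9 (7.38). Mutant 2 was the lowest mutant for Slc17a7 and Syt17. Differences without control 1 keep mutant 1, and whether arrays numbered 1 share a source was not tested. The SD over release genes of the deviation from the control mean was 0.24 in control 1, against 0.089 to 0.15 in the other 3 controls, beside 0.15 and 0.10 to 0.11 over all genes. For Snap25, Cplx2 and Unc13a, by contrast, control 1 lay close to the other controls. Control 1 was also the lowest of the 8 arrays in the average of 9 of the 21 lists beside the release genes, among them neuronal maturation (9.73), postsynaptic density (7.92), deep-layer (6.13) and thalamic genes (5.71), and the highest for ribosomal protein genes (10.49). What set this pup apart was not tested.

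The other lists cover genes of the presynaptic terminal that are not release genes, of the postsynaptic side and of neuronal maturation. Of 119 measured genes in 5 lists beside the release genes, 3 rose and 2 fell (4.2%, against 4.15% of all genes), a share close to the background. The groups did not overlap for 18 of the 119 (15.1%, against 9.25% of all genes). In limma 26 had an unadjusted p under 0.05, against 2789 of all 19938 genes. Averages did not overlap for the other SNARE list (mutants up to 7.40, controls from 7.42) or the other vesicle membrane list (mutants from 5.944, controls up to 5.935). Those of the remaining lists of the 5 overlapped. The 22 other SNARE and SNARE-binding genes included 1 that fell, Stxbp5l, the relative of tomosyn. Stxbp5l read 5.52, 5.40, 5.74 and 5.59 in the mutant pups, against 6.55, 6.54, 6.60 and 6.51 in the control pups. The groups lay far apart, with a difference of -0.98 (SE 0.075, adjusted p = 6.41e-06), beside -0.95 for Cadps2. Stxbp5, the tomosyn among the release genes, differed by -0.26 and did not pass.

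Of 25 other active zone genes Apba1 fell, an adaptor protein of the active zone scaffold. Apba1 read 8.52, 8.47, 8.60 and 8.63 in the mutant pups, against 9.13, 9.25, 9.19 and 9.26 in the control pups. Its groups were well separated, with a difference of -0.65 (SE 0.064, adjusted p = 6.04e-05). Of 27 other vesicle membrane and transporter genes, Sypl2, a further synaptophysin relative best known from muscle, and Slc18a2, the vesicular monoamine transporter, rose. Sypl2 read 5.68, 5.35, 5.31 and 5.54 in the mutant pups, against 5.14, 4.73, 4.88 and 4.77 in the control pups, a difference of 0.59 (adjusted p = 0.00406). Slc18a2 read 5.33, 5.36, 5.36 and 5.10 in the mutant pups, against 4.92, 4.71, 4.82 and 4.82 in the control pups, a difference of 0.47 (adjusted p = 0.00237). Both were dim, close above the floor, in groups that did not overlap. Within the synaptophysin family, Sypl fell, Sypl2 rose and Syp did not pass.

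Of 31 genes for vesicle endocytosis Sh3gl3, an endophilin, rose. Sh3gl3 read 7.93, 7.84, 7.72 and 7.71 in the mutant pups, against 7.47, 7.48, 7.42 and 7.53 in the control pups, groups that did not overlap, with a difference of 0.32 (adjusted p = 0.0150) that was lost without mutant 2 (0.0557) or control 3 (0.0503). None of the 14 measured subunits of the vesicle proton pump passed, and 0 had an unadjusted p under 0.05. On the receiving side, 1 of 23 postsynaptic density genes passed, Shank2, which fell by 0.29 on the log2 scale (adjusted p = 0.0243) and was lost in 6 of the 8 fits that left out 1 array, each except those without mutant 1 or control 1, with adjusted p-values up to 0.0896.

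Among 22 neuronal maturation genes, 2 rose and 2 fell (18.2%, against 4.15% of all genes and 16.1% of the release genes). Rbfox3, the antigen of NeuN antibodies, fell by 0.63 on the log2 scale (adjusted p = 2.00e-04) and Ina, a neurofilament-like protein of young axons, by 0.42 (adjusted p = 0.00541). Celf4, an RNA-binding protein of excitatory neurons, rose by 0.56 (adjusted p = 0.00320), and Eno2, the neuronal enolase, by 0.37 (adjusted p = 0.0214). Eno2 was lost without mutant 2, mutant 3, mutant 4 or control 3 (0.0589, 0.0587, 0.0717 and 0.0641). The list averaged 9.85 to 9.89 in the mutants, against 9.73 to 9.96 in the controls, so that its level overlapped while single genes went both ways, as among the release genes.

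**Figure D4:**
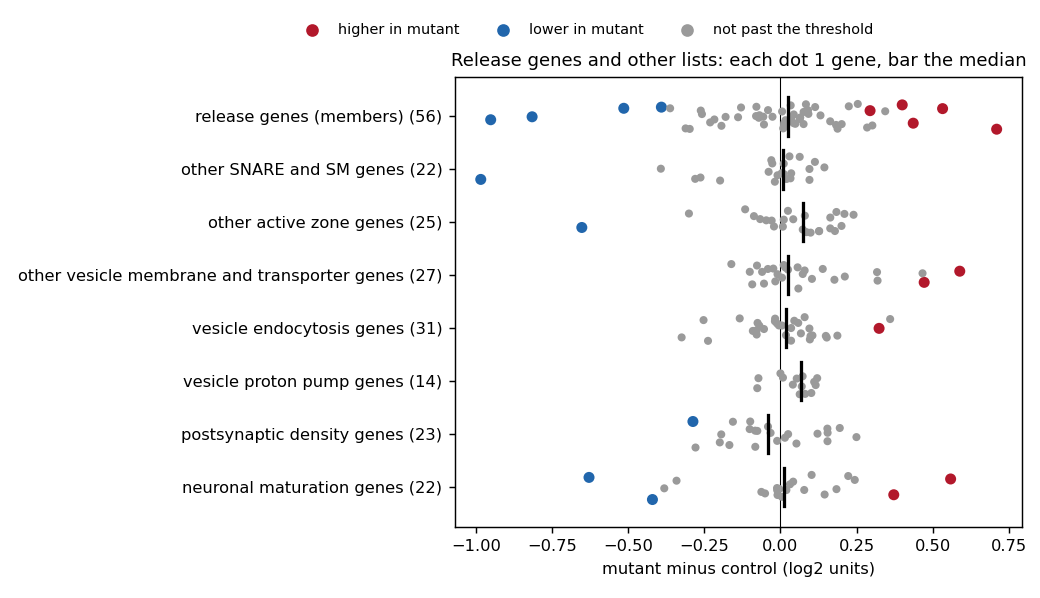
Difference, mutant minus control, in log2 units (horizontal axis) for each measured gene of the release genes and 7 other lists, with the number measured in brackets and a black bar at the median of each list. Red and blue dots are genes that were higher or lower at an adjusted p under 0.05. All medians lie between -0.041 and 0.073, and the release genes hold 9 coloured dots, against 5 in the 5 other presynaptic lists together and 4 among neuronal maturation genes.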

How the data were processed

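Total RNA of 4 mutant and 4 control pups was hybridised to 8 GeneChip Mouse Gene 1.0 ST arrays and processed with BRB-ArrayTools, per the labels. The deposited values were treated as log2 expression, normalized between arrays by the authors as far as their like medians show. The logarithm's base, background correction and normalization method are not given in sources used here; another base would change the folds and not the tests.

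Of 35556 probe sets, 21789 had 1 gene symbol, 1621 had several and 12146 had none in the platform annotation, which names no genome build. Probe sets with 1 symbol were kept, and for 999 genes with several the brightest by mean was taken, which left 19938 genes. Mutants were set against controls in limma 3.58.1 under R 4.3.3 (lmFit and eBayes, two-sided, Benjamini-Hochberg adjustment over all genes, threshold 0.05). Genes said to have risen, fallen or passed have an adjusted p under that threshold. The median SE was 0.0766, and the number of arrays limits the precision. P-values set the difference against the spread between these pups. In limma the variance of each gene was also drawn toward that of all genes (moderation, with 6.91 prior degrees of freedom). Those p-values therefore do not rest on a gene's own spread alone. Exact two-sided permutation tests ran over the 70 choices of 4 of 8 arrays and cannot give a p under 0.0286.

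The release genes and the lists beside them were chosen with earlier results of these data known. By the rule for names, any release gene could be named, with every array's value for those that passed or did not overlap, together with genes of the other lists that passed, the defining markers, Bcl11a, Xist and Y-linked genes. The procedure was tested on simulated data. Alternatives covered normalization, dim genes, probe sets, array weights, variances, thresholds, replicate blocks, inferred sex and the omission of each array. Replicate numbers share no stated litter or batch, so arrays were not paired in the main fit. Same-numbered deviations correlated at 0.11, 0.056, 0.30 and 0.15. Arrays numbered 1, 3 and 4 correlated best with their own number in the other genotype, and those numbered 2 did not. Whether same-numbered arrays share a source was not tested. Averages of the cell type lists without their most different gene were added after seeing the data.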

Additional observations from a re-analysis of the deposited data

Results flagged for a closer look

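In each group of 4 arrays, the release genes, Bcl11a and the other presynaptic genes that passed were searched for an array that lay far from the other 3, by the gap to its nearest neighbour as a share of the group's range (Dixon's ratio, at its 95% critical value). Of 124 groups of 62 genes tested 6 passed, and chance alone gives about 1 in 20. Cplx2 in mutant 1 was 9.39, below 9.52 to 9.53 in the other mutants (ratio 0.92). Rab3a in mutant 1 was 9.02, below 9.13 to 9.15 in the other mutants (ratio 0.861). Syp in mutant 4 was 9.35, above 9.12 to 9.16 in the other mutants (ratio 0.847). Slc17a6 in mutant 2 was 8.41, above 8.15 to 8.19 in the other mutants and still below every control (ratio 0.852). Slc18a2 in mutant 4 was 5.10, below 5.33 to 5.36 in the other mutants and still above every control (ratio 0.881). Cadps2 in control 3 was 7.40, above 7.16 to 7.20 in the other controls (ratio 0.832).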

How the results depend on the processing

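Snap25 and Cadps2 passed under all 19 alternatives run, and Slc17a6, Ppfia2 and Syt13 under 18 of 19, each lost only without variance moderation. Sypl and Syt4 passed in 15, Rph3a in 11 and Doc2a in 8 of 19. Of the genes short of the threshold, Syt1 passed in 6, Cplx2 in 4, Snap23 in 2, and Rims3 and Unc13a in 1 each. Doc2a was lost under quantile normalization, and Doc2a and Rph3a with arrays centred on their medians or with inferred sex as a covariate. Rph3a was lost with an intensity trend and robust variances. Without moderation, 249 genes and 0 higher and 3 lower release genes passed, with 0 higher genes in the other presynaptic lists. The number of genes passing was 447 at an adjusted p under 0.01, where 2 release genes were higher. Higher release genes numbered 3 with centring and 3 with inferred sex. Lower release genes numbered 7 at an adjusted p under 0.1. In the other presynaptic lists, 1 gene was higher without the dimmest 50% of genes, and lower genes numbered 5 with centring, 6 at an adjusted p under 0.1, and 4 without the dimmest 50%, with array weights, with trend and robust variances, or with the replicate block.

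Leaving out each array in turn gave 584 to 814 genes, 2 to 5 higher and 3 to 5 lower release genes, and 2 to 4 higher and 2 to 3 lower genes in the other lists. Higher release genes numbered 2 without mutant 3 or control 3 and 3 without mutant 2 or mutant 4. With the replicate number as a block, 987 genes, 5 higher and 5 lower release genes passed, Snap23 being the gain. Rph3a then had an adjusted p of 3.03e-04 in limma, against 0.0313 in the main fit. Arrays numbered 1, 3 and 4 correlated best with their own number in the other genotype, and those numbered 2 did not.

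Differences near 0 changed sign. With centring they were -0.026 for Stx1a, -0.030 for Vamp1, -0.024 for Nsf, -0.019 for Rab3a, -0.023 for Synpr and -0.0020 for Slc17a7. With quantile normalization they were -0.029 for Vamp1 and -0.027 for Synpr. With array weights they were -0.0081 for Stx1a, -0.016 for Nsf, -0.021 for Synpr, -0.030 for Syt17 and -0.12 for Slc17a7. With inferred sex they were -0.013 for Vamp1, -0.010 for Nsf, -0.0014 for Syt17, -0.019 for Synpr and -0.079 for Slc17a7. Over the omission of single arrays they ran from -0.020 to 0.065 for Stx1a, -0.041 to 0.070 for Vamp1, -0.0081 to 0.077 for Vamp4, -0.064 to 0.076 for Nsf, -0.32 to 0.042 for Syt10, -0.082 to 0.15 for Syt17, -0.28 to 0.046 for Doc2b, -0.081 to 0.11 for Cplx3, -0.022 to 0.046 for Rab3a, -0.016 to 0.15 for Rab3c, -0.095 to 0.018 for Syn1, -0.13 to 0.041 for Syn3, -0.079 to 0.025 for Syp, -0.042 to 0.050 for Synpr and -0.25 to 0.21 for Slc17a7. The causes of these changes were not tested. Centring shifted the median of all genes by -0.036 and quantile normalization by -0.020. Signal limits Syt12 and Cplx3, and Vamp2 was not analysed here.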
